A study of Homo sapiens with 15 samples.

Results

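The 44 genes described here encode proteins that license, start and carry out DNA replication, or that commit a cell to S phase. They were chosen by gene symbol, and all 44 were found among the 15510 genes of the deposited count table. All 44 also passed the filter on low counts, which left 13599 genes for testing. By role they fall into 11 origin licensing genes (ORC1, ORC6, CDC6, CDT1, GMNN and MCM2 to MCM7), 6 helicase activation genes (MCM10, CDC45 and GINS1 to GINS4) and 6 polymerase and primase genes (POLA1, POLA2, PRIM1, POLD1, POLE and POLE2). A further 7 encode the sliding clamp, its loader and the enzymes that finish the lagging strand (PCNA, RFC2 to RFC5, FEN1 and LIG1). The last groups are 4 genes of deoxynucleotide supply (RRM1, RRM2, TYMS and TK1), 4 regulators of S phase entry (CCNE1, CCNE2, E2F1 and E2F2), 3 genes of chromatin assembly and methylation upkeep (CHAF1A, CHAF1B and UHRF1) and 3 of fork protection and CDT1 turnover (CLSPN, TIMELESS and DTL).

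In G1 phase the origin recognition complex, CDC6 and CDT1 load the MCM helicase onto origins, and geminin (GMNN) blocks CDT1 once S phase has begun. Cyclin E with its kinase partner and the E2F transcription factors open S phase. Cyclin D with CDK4 phosphorylates the retinoblastoma protein, which otherwise holds E2F factors inactive, and many replication genes are E2F targets. CDC45, GINS and MCM10 then turn the loaded helicase on, and polymerases alpha, delta and epsilon copy the DNA on the PCNA clamp.

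Poly(A) RNA was sequenced from 15 libraries of 5 human lines, 3 libraries per line. ARPE19, an established line of retinal pigment epithelial origin, was not transfected. The other 4 lines derive from it and share plasmids for hTERT with p53DD, a dominant negative p53 fragment, and for cyclin D1 with CDK4R24C, a CDK4 mutant. T53D4 is labelled as carrying those alone, RasV12 as carrying an H-RasV12 plasmid besides, MekDD a MEK-DD plasmid and AKTmyr a plasmid for myristoylated Akt. By their labels RasV12 and AKTmyr are transformed and MekDD is weakly so, whereas T53D4 and ARPE19 are not. All were grown adherently with serum. There is 1 line per plasmid set, and replicates are separately thawed vials passaged 2 times, so tests compare these lines over the spread between vials.

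Reads on genes ranged from 20.63 to 46.55 M per library, and replicate 3 was the shallowest library of each line. The construct sequences, counted as rows of their own, check the labels. The murine p53DD and TERT rows were near 0 in ARPE19 and held 32.3 to 111 CPM and 454 to 1244 CPM as line means in the other 4 lines (CPM, read counts scaled to library size). The H-RasV12 row had a mean of 310 CPM in RasV12 and 18.6 to 23.2 in the other lines. The MEK-DD row had 753 in MekDD and was near 0 elsewhere. The myristoylated Akt row held 543, 774 and 1201 CPM in AKTmyr replicates 1, 2 and 3, against means of 104 to 118 in the other lines. The CDK4R24C row held 57.8, 72.8 and 81.6 CPM in ARPE19, 935, 975 and 1107 in AKTmyr, 88.7, 82.6 and 105 in T53D4, 127, 147 and 153 in MekDD, and 2405, 2358 and 2379 in RasV12. As line means the cyclin D1 row held 2350 CPM in RasV12 and 858 in AKTmyr, against 193 in ARPE19, 146 in T53D4 and 269.5 in MekDD. Cyclin D1 and CDK4R24C reads in the libraries labelled T53D4 and MekDD were thus far under those of RasV12 and AKTmyr, although all 4 labels name that plasmid. Every direction below that rests on T53D4 or MekDD is a statement on the libraries so labelled. Of 18 markers of retinal pigment epithelium, 16 were in the table, and most were low. The mean over all libraries was under 1 CPM for 4 of them (RPE65, TYR, MERTK and CDH1), 1 to 5 CPM for 6 (RLBP1, BEST1, TYRP1, PMEL, LRAT and RDH5) and over 5 CPM for 6 (OTX2, MITF, SERPINF1, KRT8, KRT18 and TJP1), of which the keratins and TJP1 are general epithelial genes. Of 16 markers of other cell types, 9 were in the table and 8 of those averaged under 1 CPM. The exception was CD68, a lysosomal protein also known outside macrophages, whose mean was 314 CPM in RasV12 and 133 to 164 CPM in the other lines. The summed pigment epithelium markers ran from 977 to 1146 CPM in the RasV12 libraries, under those of every other line, whose range was 1286 to 2709 CPM. Most of that sum was KRT8 and KRT18, with means of 610 and 206 CPM in RasV12 and 1681 and 650 in ARPE19. The mean of OTX2 was 69.3 CPM in RasV12, 64.9 in ARPE19 and 64.4 in T53D4, and that of MITF was 27.5, 83.3 and 92.5.

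The replication genes separated the libraries mainly into 2 low lines, ARPE19 and AKTmyr, and 3 high ones, and within the low lines the replicates differed widely. For each library, the median of the 44 log2 levels was taken relative to each gene's mean over the 15 libraries. That median was -0.93, -0.41 and 0.09 in ARPE19 replicates 1, 2 and 3, and -0.83, -0.31 and 0.35 in AKTmyr. It was 0.14, 0.13 and 0.50 in T53D4, 0.35, 0.01 and 0.29 in RasV12, and 0.31, 0.24 and 0.19 in MekDD. Of the 44 genes, 22 had their lowest level of all libraries in ARPE19 replicate 1 and 19 in AKTmyr replicate 1. The highest level fell in T53D4 replicate 3 for 19 genes and in RasV12 replicate 1 for 10. The shares of all genes at their lowest or highest in these libraries were not computed, so these counts describe the 44 alone. In both low lines replicate 3 reached the range of the high lines. In bulk RNA, fewer cells in S phase and less of these RNAs per cell cannot be told apart.

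**Figure D1:**
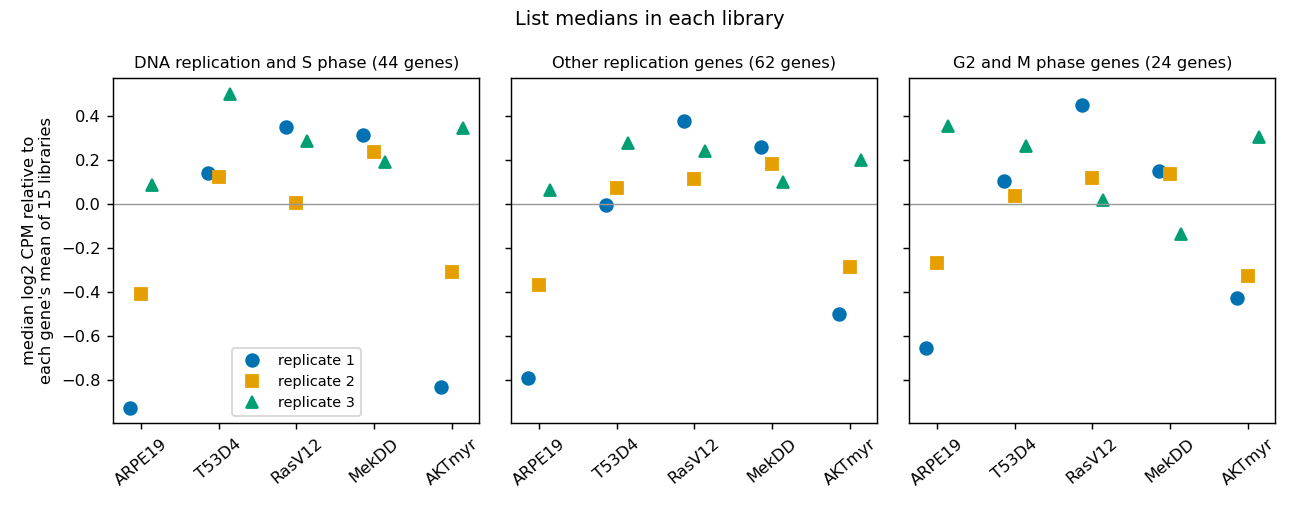
Median over each gene list of log2 CPM relative to each gene's own mean over 15 libraries (vertical axis, log2 units), with 1 point per library, lines on the horizontal axis and replicate number by colour and shape. The 44 replication and S phase genes are on the left. Their medians run from -0.93 in ARPE19 replicate 1 to 0.50 in T53D4 replicate 3, and the other replication genes and the G2 and M phase genes are also lowest in ARPE19 replicate 1.

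A list of 24 G2 and M phase genes, used for comparison, had medians of -0.65, -0.27 and 0.36 in ARPE19 and -0.43, -0.33 and 0.30 in AKTmyr. The order of replicates was therefore the same for genes of a later cell cycle phase. CDKN1A, which encodes the CDK inhibitor p21, ran the other way in those lines. Its levels were 656, 458 and 378 CPM in ARPE19, 1398, 1027 and 623 in AKTmyr, 216, 194 and 164 in T53D4, 204, 152 and 139.8 in MekDD, and 371, 555 and 547 in RasV12. The highest CDKN1A level of ARPE19 and of AKTmyr was in replicate 1, where the replication genes were lowest. In AKTmyr, reads on the Akt construct rose over the same replicates, at 543, 774 and 1201 CPM. The part of the replicate order, of CDKN1A or of the Akt construct in the results below was not tested.

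**Figure D2:**
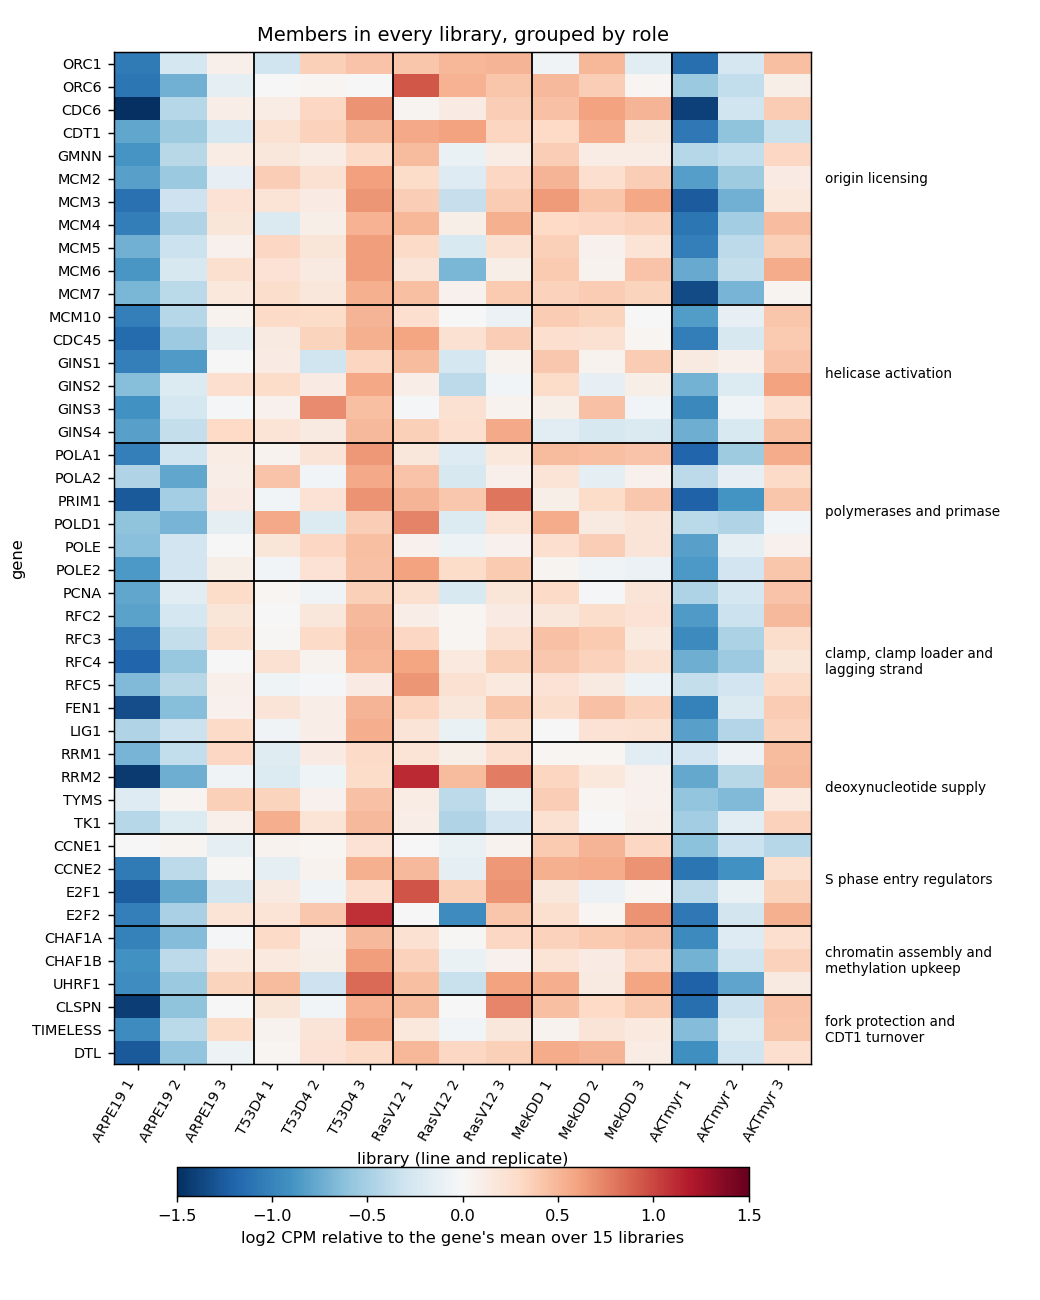
Log2 CPM of each of the 44 genes (rows, grouped by role) relative to its mean over the 15 libraries (columns, by line and replicate), with blue for lower and red for higher. ARPE19 replicate 1 and AKTmyr replicate 1 are low for nearly all rows, while CCNE1, GINS1, RRM2 and E2F1 depart from the shared pattern.

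Promoter sequence was examined because the genes moved together across libraries. RefSeq promoters (GRCh38.p14, 250 bases before to 50 after the start) were matched by symbol for 40 of the 44 genes. Any of 4 E2F-type words (TTTCCCGC, TTTGGCGC, TTTCGCGC or TTTGCCGC, either strand) stood in 22 of the 40, or 55%, against 607 of 12208 promoters of measured genes, or 5.0%. A CCAAT word (either strand) stood in 57.5% of the 40 against 36.0% of measured genes. The cell cycle homology words TTTGAA or TTCGAA, common in promoters of G2 and M phase genes, stood in 2 of the 40, or 5.0%, against 11.7%. A match is a description of letters and shows no binding.

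The 150 bases before the RefSeq start are shown for 6 genes on which the results turn, with E2F-type words in capitals. CDT1 lies on the plus strand at chr16:88803639-88803788, MCM7 on the minus strand at chr7:100101398-100101547 and E2F1 on the minus strand at chr20:33686386-33686535. RRM2 lies on the plus strand at chr2:10122589-10122738, TK1 on the minus strand at chr17:78187205-78187354 and CCNE1 on the plus strand at chr19:29811841-29811990. In the deposited annotation the windows of CDT1, E2F1 and CCNE1 end where the gene's span begins, those of MCM7 and RRM2 lie inside the span of a longer transcript, and that of TK1 overlaps the first bases of its span. All are written 5′ to 3′ on the gene's strand.
CDT1: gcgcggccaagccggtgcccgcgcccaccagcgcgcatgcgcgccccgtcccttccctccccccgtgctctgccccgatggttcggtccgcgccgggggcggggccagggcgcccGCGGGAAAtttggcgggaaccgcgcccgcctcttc
MCM7: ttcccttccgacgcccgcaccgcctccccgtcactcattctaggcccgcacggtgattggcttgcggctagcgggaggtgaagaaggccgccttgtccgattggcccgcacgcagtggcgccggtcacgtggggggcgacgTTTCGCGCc
E2F1: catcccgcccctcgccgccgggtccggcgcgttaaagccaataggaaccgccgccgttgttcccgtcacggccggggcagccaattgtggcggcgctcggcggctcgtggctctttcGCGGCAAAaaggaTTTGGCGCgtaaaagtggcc
RRM2: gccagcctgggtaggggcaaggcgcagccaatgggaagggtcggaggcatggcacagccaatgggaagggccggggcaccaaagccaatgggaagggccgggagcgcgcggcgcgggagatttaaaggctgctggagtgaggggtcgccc
TK1: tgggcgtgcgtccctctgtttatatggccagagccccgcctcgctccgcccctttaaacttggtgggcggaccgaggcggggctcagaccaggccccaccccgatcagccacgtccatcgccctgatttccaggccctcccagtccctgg
CCNE1: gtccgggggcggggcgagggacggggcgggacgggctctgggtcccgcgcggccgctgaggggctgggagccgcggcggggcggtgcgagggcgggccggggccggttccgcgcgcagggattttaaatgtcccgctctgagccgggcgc
CDT1 carries 1 E2F-type word close to its start, MCM7 has 1 and E2F1 has 2. The windows of RRM2, TK1 and CCNE1 hold none of these exact letters. RRM2 has 3 CCAAT words in the window and TK1 none.

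Over all 5 lines, edgeR's quasi-likelihood F test with the replicate number as a block called 30 of the 44 genes (Benjamini-Hochberg adjusted p under 0.05 over all genes tested), against 66.2% of all genes. Without the block it called 11, against 46.1% of all genes. By role the calls were 8 of 11 in origin licensing, 4 of 6 in helicase activation, 4 of 6 polymerase and primase genes, 3 of 7 clamp and lagging strand genes, 3 of 4 in deoxynucleotide supply, 4 of 4 entry regulators, 2 of 3 in chromatin assembly and 2 of 3 in fork protection. The genes not called included MCM5, MCM6, GMNN, PCNA, RRM1 and LIG1. The share of the 44 was near that of all genes with the block and below it without.

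T53D4 and ARPE19 differ by their labels in the shared plasmids. In the libraries labelled T53D4, hTERT and p53DD reads were raised and cyclin D1 reads were not. CDK4R24C reads were 88.7, 82.6 and 105 CPM against 57.8, 72.8 and 81.6 in ARPE19, and far under those of RasV12 and AKTmyr. The row of the CDK4 gene itself had means of 94.2 CPM in T53D4 and 66.6 in ARPE19. All 44 genes had a positive log2 fold change, with a median of 0.64 against -0.00116 for all genes tested. The test called 2 of them higher, CDT1 and MCM2, and 0 lower, against 0.743% and 0.963% of all genes. Without the block it called 0, against 0.0368% higher and 0.118% lower of all genes. In 18 of the 44 the T53D4 libraries all lay above those of ARPE19, against 8.04% of all genes. Within replicate numbers 1, 2 and 3 the median difference of the 44 was 1.06, 0.55 and 0.43. The count was 0 without ARPE19 replicate 1 or 2 or any 1 of the T53D4 libraries, 1 without MekDD replicate 2, 4 without ARPE19 replicate 3, 6 without RasV12 replicate 1 and 7 without AKTmyr replicate 1. Here and below, counts from fits that leave out a library have no share of all genes beside them. They show only how far the calls move. DESeq2 with the block called 17, all higher in T53D4, and 6.35% of all genes in either direction. All 24 G2 and M phase genes also had a positive log2 fold change, with a median of 0.31 and 0 called. In replicate 3, 19 of those 24 were lower in T53D4.

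In AKTmyr against T53D4, which by their labels differ in the Akt plasmid, 43 of 44 genes had a negative log2 fold change and the median was -0.51. The test called 16 lower and 0 higher, against 17.9% and 16.9% of all genes, with 4 lower and 0 higher without the block (10.2% and 9.91% of all genes), namely CDT1, MCM2, MCM7 and CCNE1. The 16 were CDC6, CDT1, MCM2, MCM3, MCM5 and MCM7 of origin licensing, GINS3, the polymerase and primase genes PRIM1, POLD1 and POLE, LIG1, TYMS, the regulators CCNE1, CCNE2 and E2F2, and UHRF1. Within replicate numbers the median difference was -0.96, -0.49 and -0.15, so that it was small in replicate 3. In all 3 pairs 33 genes were lower, against 32.7% of all genes, and 5 had no overlap, against 18.5%. The count was 28 without AKTmyr replicate 3, 4 without AKTmyr replicate 1, 7 without AKTmyr replicate 2, 5 without T53D4 replicate 1 and 8 without T53D4 replicate 2 or 3, all lower in AKTmyr. These counts too have no share of all genes beside them. The G2 and M phase list had a median of -0.28 in this comparison, with 23 of 24 genes negative and 0 of 24 called. A negative sign in nearly every gene was thus shared by both lists. AKTmyr and RasV12 also exceed T53D4 in cyclin D1 and CDK4R24C reads, so in both comparisons the added plasmid and that difference cannot be told apart.

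**Figure D3:**
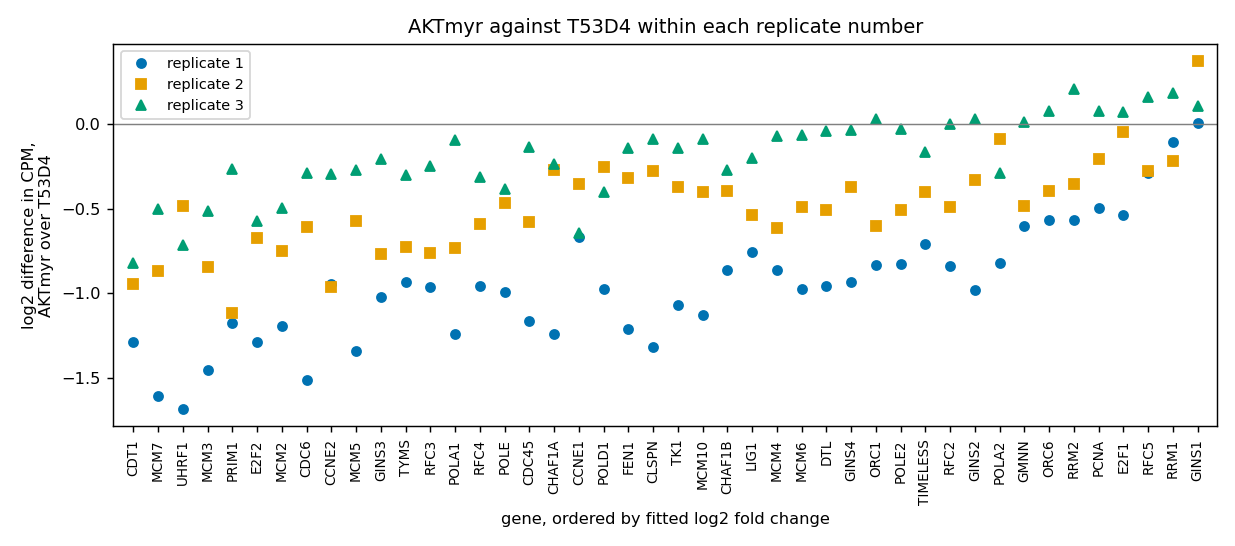
Difference in log2 CPM between AKTmyr and T53D4 libraries of the same replicate number (vertical axis) for each of the 44 genes, ordered by fitted log2 fold change. The line at 0 marks no difference. Replicate 1 lies lowest for most genes and replicate 3 nearest to 0, with medians of -0.96, -0.49 and -0.15.

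RasV12 and MekDD were each compared with AKTmyr. RasV12 was called higher in 20 of the 44 genes and lower in 0, against 26.3% and 26.4% of all genes (6 and 0 without the block, against 19.6% and 20.7%), with a median log2 fold change of 0.50. MekDD was called higher in 18 and lower in 0, against 20.3% and 20% (6 and 0 without the block, against 12.7% and 13.5%), with a median of 0.53. Both comparisons share the AKTmyr libraries with each other and with the comparison of AKTmyr and T53D4. Cyclin D1 and CDK4R24C reads were higher in RasV12 and lower in MekDD than in AKTmyr. Those differences and the plasmids named by the labels cannot be told apart. The median within replicate numbers 1, 2 and 3 was 1.17, 0.34 and -0.02 for RasV12 and 1.09, 0.58 and -0.12 for MekDD. In replicate 3, 20 of 44 genes were higher in RasV12 than in AKTmyr, against 51.7% of all genes. In MekDD 13 of 44 were higher there, against 51.4% of all genes. For RasV12 the count was 6 without RasV12 replicate 1, 5 without AKTmyr replicate 1, 10 without AKTmyr replicate 2 and 31 without AKTmyr replicate 3. For MekDD it was 7 without MekDD replicate 1, MekDD replicate 2 or AKTmyr replicate 1, and 11 without AKTmyr replicate 2. Fitting the 2 lines alone gave 5 for RasV12 and 8 for MekDD. Of the 24 G2 and M phase genes, 21 were positive and 3 negative for RasV12, with a median of 0.36. Of these, 5 were called higher and 1 lower. For MekDD 23 were positive and 1 negative, with a median of 0.24 and 0 called.

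In RasV12 against T53D4, which by their labels differ in the H-RasV12 plasmid, calls were a smaller share of the 44 than of all genes in either direction. The test called RRM2, ORC6 and E2F1 higher and E2F2 and TK1 lower, against 16.6% and 19.2% of all genes. Without the block only TK1 was called, against 10.8% higher and 13.6% lower. The median was -0.04, and 19 genes had a positive and 25 a negative log2 fold change. The count of 5 was 0 without T53D4 replicate 1 or 3, 1 without replicate 2 of any 1 line, and 3 without RasV12 replicate 1 or 3. In the same comparison 7 of the 15 pigment epithelium markers tested were called lower and 1 higher, and CD68 was higher by 1.19 (SE 0.16, edgeR adjusted p = 0.000114). Their part in the RasV12 results was not tested. MekDD against T53D4 had 0 genes called in either direction with or without the block, against 5.49% higher and 6.2% lower of all genes with it and 2.27% and 2.83% without it. DESeq2 with the block also called 0, against 15.4% of all genes, whereas fitting the 2 lines alone called 1 higher and 2 lower, against 18.7% in either direction. CCNE2 (edgeR adjusted p = 0.0472) and TK1 (edgeR adjusted p = 0.0439) were among those 3. At an unadjusted p under 0.05 the fit of all lines had 2 genes. The median of the 44 was 0.01, and 36 of the 44 differed in sign among the 3 replicate pairs. RasV12 against MekDD had 2 genes called higher, E2F1 and GINS4, and 1 lower, CCNE1, against 12.5% and 13.9% of all genes. Only CCNE1 was called without the block, against 7.17% higher and 8.33% lower. The median was -0.06, and the count of 3 was 0 without MekDD replicate 2 and 1 without MekDD replicate 3 or RasV12 replicate 2. RasV12 also exceeds MekDD in cyclin D1 and CDK4R24C reads, so that difference and the plasmids named by the labels cannot be told apart.

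Against ARPE19, RasV12 was called higher in 22 genes and lower in 0, against 21.5% and 22.1% of all genes (9 and 0 without the block, against 14.4% and 16.2%), with a median of 0.62. MekDD was called higher in 23 and lower in 0, against 10.7% and 11.9% (6 and 0 without the block, against 4.61% and 6.27%), with a median of 0.72. AKTmyr against ARPE19 had GINS1 and E2F1 called higher and CCNE1 lower, against 14.4% and 15.2%, and a median of 0.13. Only CCNE1 was called there without the block, against 7.98% higher and 8.86% lower. These comparisons share the ARPE19 libraries with that of T53D4. The median within replicate numbers 1, 2 and 3 was 1.30, 0.46 and 0.21 for RasV12, 1.26, 0.72 and 0.17 for MekDD, and 0.06, 0.04 and 0.26 for AKTmyr. For RasV12 the count was 10 without ARPE19 replicate 1 and 11 without RasV12 replicate 1. For MekDD it was 5 without ARPE19 replicate 1, 6 without MekDD replicate 1 or 2 and 11 without ARPE19 replicate 2. The G2 and M phase list had medians of 0.41 for RasV12, 0.27 for MekDD and 0.04 for AKTmyr against ARPE19.

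**Figure D4:**
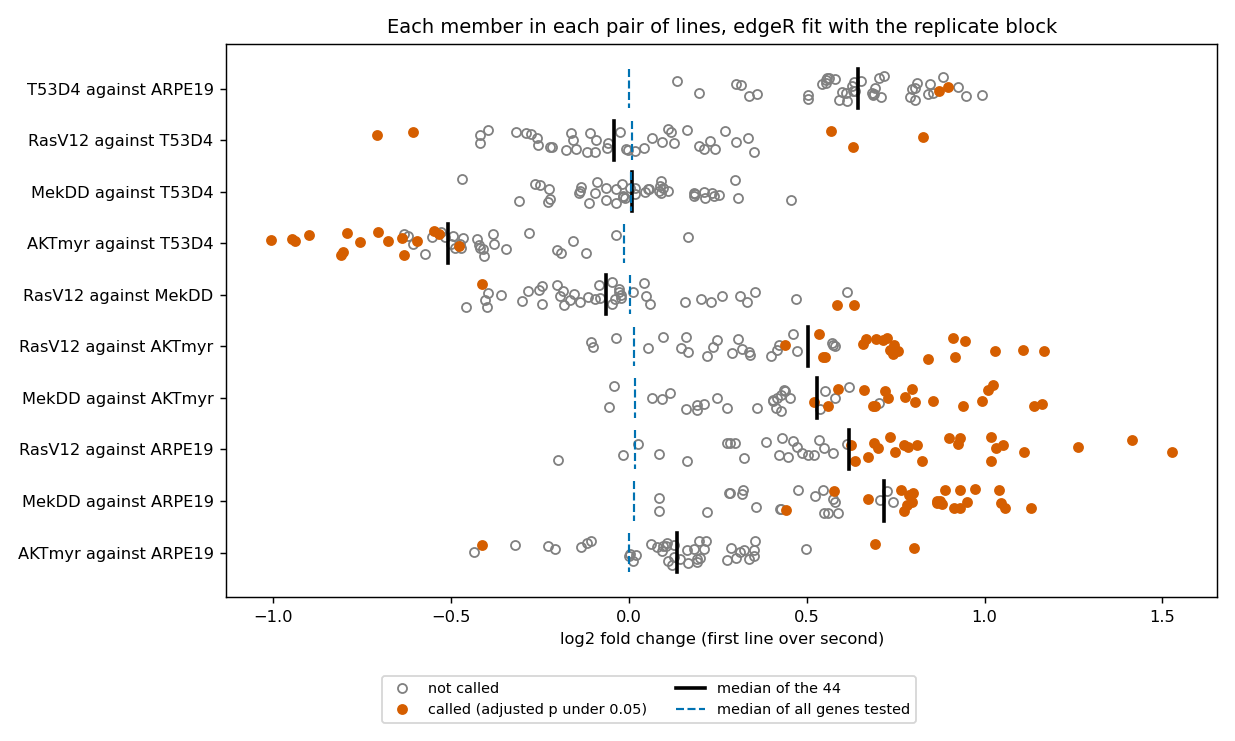
Fitted log2 fold change (horizontal axis, first line over second) of each of the 44 genes in the 10 pairs of lines, with filled points for genes called in the fit with the replicate block. Black bars are the median of the 44 and dashed bars that of all genes tested. The median runs from -0.51 in AKTmyr against T53D4 to 0.72 in MekDD against ARPE19.

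Among the origin licensing genes, CDT1 brings the MCM complex to origins. In replicates 1, 2 and 3, the order used for every gene below, CDT1 stood at 28.5, 33.8 and 40.4 CPM in ARPE19, 23.3, 32.04 and 38.7 in AKTmyr, 56.9, 61.7 and 68.3 in T53D4, 60.1, 71.4 and 55.02 in MekDD, and 72.4, 74.1 and 61.01 in RasV12. The 6 libraries of ARPE19 and AKTmyr lay below all 9 libraries of the other lines. CDT1 was lower in AKTmyr than in T53D4, with a log2 fold change of -1.01 (SE 0.16, edgeR adjusted p = 0.000723), and it was called in 24 of 24 alternative settings. It was higher in RasV12 than in AKTmyr by 1.17 (SE 0.16, edgeR adjusted p = 9.44e-05) and in MekDD than in AKTmyr by 1.01 (SE 0.16, edgeR adjusted p = 0.000516). Against ARPE19 it was higher in T53D4 by 0.87 (SE 0.16, edgeR adjusted p = 0.0263), called in 16 of 24, in RasV12 by 1.03 and in MekDD by 0.87. AKTmyr against ARPE19 had -0.13 (SE 0.16, edgeR adjusted p = 0.567) and was not called.

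MCM7, a subunit of the replicative helicase, stood at 151, 185 and 271 CPM in ARPE19, 95.96, 149.6 and 249.9 in AKTmyr, 292, 273 and 353 in T53D4, 309, 316 and 308 in MekDD, and 333, 254 and 319.8 in RasV12. Its 3 AKTmyr libraries lay below the 3 of T53D4, of RasV12 and of MekDD, though AKTmyr replicate 3 came within a few CPM of RasV12 replicate 2. The log2 fold change of AKTmyr against T53D4 was -0.95 (SE 0.22, edgeR adjusted p = 0.00685). MCM7 was higher than in AKTmyr by 0.94 in RasV12 and 0.99 in MekDD, both called. Its span overlaps AP4M1 on the other strand, and use of strand in the counting is not given in the sources used here. Besides the overlaps given with genes below, the spans of GINS2, RFC4, RFC5 and CCNE2 overlap genes on the other strand. Those of POLA2, POLD1 and CHAF1B overlap genes on the same strand. Relative to the list median of its own library, MCM7 lay from -0.51 to -0.31 in the AKTmyr libraries and from 0.01 to 0.24 in the other 12.

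MCM2, another helicase subunit, stood at 71.3, 85.6 and 115 CPM in ARPE19, 71.3, 87.4 and 137 in AKTmyr, 163, 147 and 193 in T53D4, 179, 149.8 and 162 in MekDD, and 153, 110.5 and 156 in RasV12. Its T53D4 libraries lay above the ARPE19 and AKTmyr libraries with no overlap, and the log2 fold changes were 0.90 (SE 0.17, edgeR adjusted p = 0.0312) against ARPE19 and, for AKTmyr against T53D4, -0.79 (SE 0.17, edgeR adjusted p = 0.0046). MCM3 stood at 65.1, 113 and 164 CPM in ARPE19, 59.2, 85.2 and 157 in AKTmyr, 162, 153 and 223 in T53D4, 219, 187 and 211 in MekDD, and 182, 111 and 183 in RasV12. AKTmyr replicate 3 reached the lower T53D4 libraries, and AKTmyr against T53D4 gave -0.90 (SE 0.27, edgeR adjusted p = 0.0218). MCM5 was called lower in that comparison at -0.68, while MCM4 had -0.48 and MCM6 -0.47 without passing the test.

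CDC6, a loader of the MCM complex, stood at 20.7, 44.6 and 64.5 CPM in ARPE19, 22.7, 48.8 and 78.2 in AKTmyr, 64.8, 74.3 and 95.3 in T53D4, 81.4, 91.1 and 85.4 in MekDD, and 61.7, 65.3 and 77.2 in RasV12. Replicate 1 of ARPE19 and of AKTmyr lay below the other 13 libraries. AKTmyr against T53D4 gave -0.76 (SE 0.27, edgeR adjusted p = 0.0485), called in 10 of 24 alternatives. MekDD against ARPE19 gave 1.13 (SE 0.28, edgeR adjusted p = 0.0124). ORC6, a subunit of the origin recognition complex, was highest in RasV12, at 12.7, 16.4 and 24.2 CPM in ARPE19, 18.3, 20.9 and 28.6 in AKTmyr, 27.04, 27.5 and 27.05 in T53D4, 37.6, 34.8 and 27.4 in MekDD, and 51.2, 38.7 and 35.98 in RasV12. All 3 RasV12 libraries lay above those of ARPE19, T53D4 and AKTmyr. The log2 fold change was 1.26 (SE 0.23, edgeR adjusted p = 0.001) against ARPE19, called in 24 of 24 alternatives, 0.63 (SE 0.23, edgeR adjusted p = 0.0475) against T53D4, called in 13 of 24, and 0.91 against AKTmyr. ORC1 was called higher in RasV12 than in AKTmyr (0.76) and ARPE19 (0.90). GMNN, the CDT1 inhibitor, was called in 0 of the 10 pairs, and its line means lay from 30.9 to 44.97 CPM.

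Among the helicase activation genes, GINS1 was the 1 member of the 44 with a positive log2 fold change in AKTmyr against T53D4. GINS1 stood at 17.7, 20.00 and 35.9 CPM in ARPE19, 39.5, 37.8 and 48.4 in AKTmyr, 39.2, 29.2 and 44.9 in T53D4, 47.5, 37.3 and 46.7 in MekDD, and 49.8, 30.1 and 37.4 in RasV12. Every AKTmyr library was above every ARPE19 library, with a log2 fold change of 0.80 (SE 0.19, edgeR adjusted p = 0.00865), while AKTmyr overlapped T53D4 and gave 0.17 (SE 0.19, edgeR adjusted p = 0.525). Relative to the list median of its library, GINS1 lay from 0.08 to 0.96 in AKTmyr and from -0.43 to 0.19 in T53D4, RasV12 and MekDD. GINS4, another subunit of the GINS complex, stood at 19.5, 26.8 and 42.4 CPM in ARPE19, 20.7, 29.3 and 47.1 in AKTmyr, 39.6, 37.9 and 48.2 in T53D4, 30.6, 29.2 and 29.5 in MekDD, and 44.1, 41.1 and 50.8 in RasV12. The 3 MekDD libraries were within 29.2 to 30.6 CPM and below all T53D4 and RasV12 libraries. RasV12 against MekDD gave 0.59 (SE 0.20, edgeR adjusted p = 0.0472), called in 12 of 24 alternatives, and MekDD against T53D4 gave -0.47 (SE 0.20, edgeR adjusted p = 0.156). GINS3 was called lower in AKTmyr than in T53D4 at -0.64.

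GINS2 stood at 18.2, 24.7 and 33.8 CPM in ARPE19, 17.4, 24.7 and 43.2 in AKTmyr, 34.3, 30.9 and 42.3 in T53D4, 34.3, 26.04 and 30.3 in MekDD, and 30.4, 21.6 and 27.6 in RasV12, and its lines overlapped in most pairs. It was called in 0 of the 10 pairs, with the lowest value, -0.42, in RasV12 against T53D4. CDC45, which joins MCM and GINS in the active helicase, was called higher in RasV12 than in ARPE19 (1.02) and AKTmyr (0.67) and in MekDD than in ARPE19 (0.79). MCM10, which activates the loaded helicase, stood at 9.84, 14.9 and 20.8 CPM in ARPE19, 11.2, 18.4 and 26.8 in AKTmyr, 24.5, 24.2 and 28.4 in T53D4, 26.1, 25.1 and 19.9 in MekDD, and 23.8, 20.1 and 18.8 in RasV12. It was called in 0 of the 10 pairs. MCM10 lies on the short arm of chromosome 10, whose 102 genes of at least 5 CPM had a median of -0.33 in RasV12 against T53D4, where MCM10 itself had -0.27.

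PRIM1, the primase subunit that makes the RNA primer, stood at 5.36, 9.04 and 13.99 CPM in ARPE19, 5.54, 6.87 and 17.1 in AKTmyr, 12.5, 14.9 and 20.5 in T53D4, 13.7, 15.5 and 17.03 in MekDD, and 18.3, 16.95 and 22.3 in RasV12. AKTmyr replicates 1 and 2 lay with the low ARPE19 libraries, and AKTmyr replicate 3 with T53D4. The log2 fold change was -0.81 (SE 0.24, edgeR adjusted p = 0.0203) in AKTmyr against T53D4, 1.11 (SE 0.24, edgeR adjusted p = 0.00209) in RasV12 against AKTmyr and 1.11 in RasV12 against ARPE19. Its span overlaps NACA on the same strand and HSD17B6 on the other, so its counts are uncertain. POLE, the leading strand polymerase, was called lower in AKTmyr than in T53D4 (-0.59) and higher in MekDD than in AKTmyr (0.56). POLD1, the catalytic subunit of polymerase delta, had -0.53 and 0.59 in the same pairs, both called. POLA1, of polymerase alpha, was called in MekDD against AKTmyr (0.80) and ARPE19 (0.87). POLA2 was called in 0 pairs, and POLE2 in RasV12 against AKTmyr (0.66) and ARPE19 (0.79).

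PCNA, the sliding clamp, stood at 109, 166 and 227 CPM in ARPE19, 135, 156 and 252 in AKTmyr, 190.4, 179.5 and 238 in T53D4, 227, 184 and 213 in MekDD, and 221, 160.1 and 211 in RasV12. Its lines overlapped in every pair and it was called in 0 of the 10, with log2 fold changes from -0.19 in AKTmyr against T53D4 to 0.36 in MekDD against ARPE19. FEN1, the nuclease that removes primer flaps and whose span overlaps FADS2 on the same strand, stood at 35.97, 57.8 and 93.8 CPM in ARPE19, 44.5, 77.6 and 117 in AKTmyr, 103, 96.8 and 129 in T53D4, 108, 122 and 115 in MekDD, and 113, 101 and 119.8 in RasV12. It was higher than in ARPE19 in RasV12 (0.92) and MekDD, where the fit gave 0.97 (SE 0.24, edgeR adjusted p = 0.014). RFC4, of the clamp loader, was called higher in RasV12 and MekDD than in either ARPE19 or AKTmyr, with log2 fold changes from 0.69 to 0.93. RFC3 and RFC5 were called in 1 pair each and RFC2 in 0. LIG1, the ligase of the lagging strand, was called lower in AKTmyr than in T53D4 at -0.48.

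The 4 deoxynucleotide genes went different ways. RRM2, the small subunit of ribonucleotide reductase, stood at 79.97, 129.8 and 208 CPM in ARPE19, 127, 162 and 303 in AKTmyr, 188, 207 and 263 in T53D4, 271, 242 and 227 in MekDD, and 469, 299.6 and 368 in RasV12. RasV12 lay above every library of ARPE19, T53D4 and MekDD, and AKTmyr replicate 3 just passed RasV12 replicate 2. The log2 fold change was 1.53 (SE 0.30, edgeR adjusted p = 0.00137) against ARPE19, called in 24 of 24 alternatives, 0.83 (SE 0.29, edgeR adjusted p = 0.0412) against T53D4, called in 13 of 24, and 1.03 (SE 0.29, edgeR adjusted p = 0.0105) against AKTmyr, called in 19 of 24. Relative to the list median of its library RRM2 lay from 0.46 to 0.76 in RasV12 and from -0.51 to 0.14 elsewhere. RRM1, the large subunit, was called in 0 of the 10 pairs and had 0.11 in RasV12 against T53D4.

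TK1, the salvage kinase for thymidine, stood at 92.4, 107 and 130.1 CPM in ARPE19, 86.3, 110.0 and 157 in AKTmyr, 181, 142 and 173 in T53D4, 145, 125 and 130.4 in MekDD, and 133, 90.9 and 102 in RasV12. RasV12 lay below T53D4 with no overlap, and its log2 fold change was -0.61 (SE 0.19, edgeR adjusted p = 0.0253), with an adjusted p of 0.0458 in edgeR without the block. AKTmyr against T53D4 gave -0.50 (SE 0.19, edgeR adjusted p = 0.0587), with AKTmyr replicate 3 inside the T53D4 range. TYMS, which makes thymidylate and whose span overlaps ENOSF1 on the other strand, stood at 53.6, 62.8 and 78.5 CPM in ARPE19, 40.4, 38.6 and 67.5 in AKTmyr, 77.02, 63.7 and 83.05 in T53D4, 78.7, 62.3 and 63.9 in MekDD, and 65.8, 46.7 and 57.1 in RasV12. It was called lower in AKTmyr than in T53D4, with a log2 fold change of -0.63 (SE 0.18, edgeR adjusted p = 0.0153), and higher in MekDD than in AKTmyr by 0.52. In RasV12 against T53D4 it had -0.40 and was not called.

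Cyclin E1 (CCNE1), which activates the kinase that opens S phase, did not follow the replicate order seen over the list. CCNE1 stood at 8.82, 9.12 and 7.996 CPM in ARPE19, 5.81, 7.11 and 6.58 in AKTmyr, 9.21, 9.07 and 10.3 in T53D4, 11.7, 12.6 and 10.99 in MekDD, and 8.94, 8.30 and 9.23 in RasV12. All AKTmyr libraries lay below all libraries of the other 4 lines, and all MekDD libraries above those of the others. CCNE1 was lower in AKTmyr than in T53D4, with a log2 fold change of -0.55 (SE 0.12, edgeR adjusted p = 0.00465), called in 22 of 24 alternatives, and than in ARPE19, with -0.41 (SE 0.12, edgeR adjusted p = 0.0221), called in 18 of 24. It was higher in MekDD than in AKTmyr by 0.85 (SE 0.12, edgeR adjusted p = 0.00022), called in 24 of 24 alternatives, and than in ARPE19 by 0.44 (SE 0.12, edgeR adjusted p = 0.02), called in 16 of 24. RasV12 against MekDD gave -0.41 (SE 0.12, edgeR adjusted p = 0.0223), called in 18 of 24. MekDD against T53D4 gave 0.31 (SE 0.12, edgeR adjusted p = 0.121), which missed the threshold. Differences within replicate numbers 1, 2 and 3 were 1.00, 0.82 and 0.74 for MekDD against AKTmyr.

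CCNE2 stood at 5.21, 8.30 and 11.04 CPM in ARPE19, 5.08, 5.77 and 12.9 in AKTmyr, 9.79, 11.3 and 15.8 in T53D4, 15.7, 16.02 and 17.3 in MekDD, and 15.3, 9.83 and 17.1 in RasV12. AKTmyr replicates 1 and 2 were near ARPE19 replicate 1 and AKTmyr replicate 3 was inside the T53D4 range. CCNE2 was higher in MekDD than in AKTmyr by 1.16 (SE 0.24, edgeR adjusted p = 0.00266) and lower in AKTmyr than in T53D4, with -0.71 (SE 0.24, edgeR adjusted p = 0.0383). MekDD against T53D4 gave 0.46 (SE 0.24, edgeR adjusted p = 0.247).

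E2F1, an activating E2F factor, was highest in RasV12, at 22.4, 30.9 and 43.5 CPM in ARPE19, 40.1, 49.2 and 66.3 in AKTmyr, 58.02, 50.8 and 62.95 in T53D4, 59.4, 49.8 and 54.01 in MekDD, and 102, 67.8 and 84.3 in RasV12. The 3 RasV12 libraries lay above all 12 others. Its log2 fold change in RasV12 was 1.42 (SE 0.20, edgeR adjusted p = 0.000175) against ARPE19, called in 24 of 24 alternatives, 0.72 (SE 0.20, edgeR adjusted p = 0.00904) against AKTmyr, called in 20 of 24, 0.63 (SE 0.20, edgeR adjusted p = 0.0338) against MekDD, called in 18 of 24, and 0.57 (SE 0.20, edgeR adjusted p = 0.0411) against T53D4, called in 14 of 24. AKTmyr was also higher than ARPE19, by 0.69 (SE 0.20, edgeR adjusted p = 0.0216). E2F1 lies on chromosome 20, where the 287 genes of at least 5 CPM had a median of 0.25 in RasV12 against T53D4, 0.31 against MekDD, 0.24 against AKTmyr and 0.27 against ARPE19. PCNA and GINS1 lie on the same chromosome and had -0.03 and 0.07 in RasV12 against T53D4. The part of that shift in the E2F1 values was not tested.

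E2F2, a second activating E2F factor, stood at 3.43, 5.02 and 8.08 CPM in ARPE19, 3.32, 5.81 and 10.1 in AKTmyr, 8.11, 9.29 and 15.05 in T53D4, 8.26, 7.17 and 11.2 in MekDD, and 6.97, 3.64 and 9.37 in RasV12. T53D4 replicate 3 was the highest library, and RasV12 and AKTmyr overlapped the other T53D4 libraries. RasV12 against T53D4 gave -0.71 (SE 0.26, edgeR adjusted p = 0.0488), called in 7 of 24 alternatives, and AKTmyr against T53D4 gave -0.80 (SE 0.26, edgeR adjusted p = 0.0291). E2F1 and E2F2 were thus called in opposite directions in RasV12 against T53D4.

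**Figure D5:**
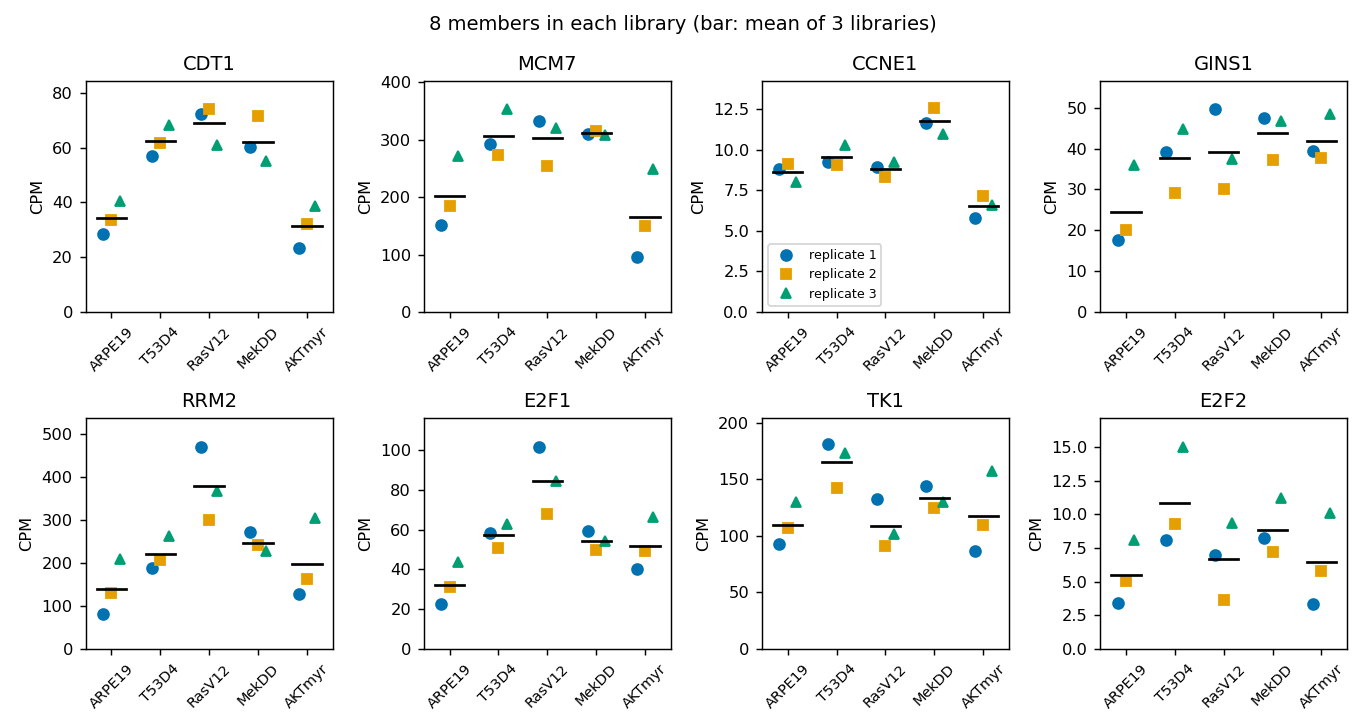
CPM (vertical axis, from 0) of 8 genes in each library, with lines on the horizontal axis, replicate number by colour and shape, and a bar at the mean of 3 libraries. CDT1 separates ARPE19 and AKTmyr from the other lines, CCNE1 is lowest in AKTmyr and highest in MekDD, RRM2 and E2F1 are highest in RasV12, and TK1 in RasV12 lies under T53D4.

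UHRF1, which recruits the maintenance methyltransferase to newly copied DNA, stood at 28.9, 37.6 and 69.9 CPM in ARPE19, 23.9, 32.02 and 60.9 in AKTmyr, 76.95, 44.7 and 99.95 in T53D4, 80.4, 60.95 and 83.3 in MekDD, and 75.7, 43.9 and 83.98 in RasV12. T53D4 replicate 2 was low for its line and overlapped AKTmyr. AKTmyr against T53D4 gave -0.94 (SE 0.25, edgeR adjusted p = 0.0128) and MekDD against AKTmyr 1.02 (SE 0.25, edgeR adjusted p = 0.00691). CHAF1A, the large subunit of the histone chaperone CAF-1, stood at 33.7, 43.03 and 66.5 CPM in ARPE19, 34.97, 59.5 and 80.9 in AKTmyr, 82.5, 71.7 and 95.1 in T53D4, 86.2, 89.02 and 91.2 in MekDD, and 79.7, 68.8 and 83.8 in RasV12. Its span overlaps UBXN6 on the other strand. MekDD and RasV12 lay above ARPE19 without overlap, and MekDD against ARPE19 gave 0.95 (SE 0.20, edgeR adjusted p = 0.00642). CHAF1B was called in 0 of the 10 pairs.

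CLSPN, the fork protein claspin, stood at 13.7, 24.2 and 36.9 CPM in ARPE19, 16.7, 29.4 and 49.3 in AKTmyr, 41.6, 35.6 and 52.5 in T53D4, 50.1, 45.2 and 48.1 in MekDD, and 51.03, 36.9 and 60.8 in RasV12. RasV12 against ARPE19 gave 1.05 (SE 0.28, edgeR adjusted p = 0.0087) and MekDD against ARPE19 1.04. DTL, which targets CDT1 for destruction at PCNA and overlaps INTS7 on the other strand, stood at 29.2, 46.5 and 66.1 CPM in ARPE19, 36.97, 57.1 and 83.5 in AKTmyr, 71.6, 81.1 and 85.7 in T53D4, 103, 99.98 and 75.7 in MekDD, and 99.2, 86.8 and 89.3 in RasV12. Both RasV12 and MekDD lay above ARPE19, and MekDD gave 1.05 (SE 0.26, edgeR adjusted p = 0.0138). TIMELESS was called in 0 pairs.

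Levels differ widely among the members when scaled by exon length (CPM per kb of exon, mean of 15 libraries). PCNA was highest at 136, followed by TK1 at 68.8, MCM7 at 58.7 and RRM1 at 44.7. The lowest were CCNE2 at 2.67, E2F2 at 1.40 and POLA2 at 1.21. The 6 MCM2 to MCM7 subunits, which assemble in equal numbers, ran from 18.2 for MCM5 to 58.7 for MCM7 on this scale. The scale depends on the length used, which joins all annotated exons of a gene, 7268 bp for MCM5 and 4386 bp for MCM7. In CPM without that scaling MCM6 had the lowest mean of the 6, 98.6, and MCM5 had 132.6. E2F1 stood at 20.8, well above E2F2, and CCNE1 at 3.68.

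Of a further 62 replication and S phase genes, all tested, 16 were called lower and 0 higher in AKTmyr against T53D4, against 17.9% and 16.9% of all genes, with a median of -0.27. Without the block 6 were called lower and 0 higher, against 10.2% and 9.91% of all genes. Among those called were CDC25A, a phosphatase that activates cyclin E kinase, at -0.87, HELLS, a chromatin remodeller, at -0.79 and the helicase RECQL4 at -0.68. In RasV12 against T53D4, 6 were called higher and 3 lower, against 16.6% and 19.2%. Without the block it was 3 and 1, against 10.8% and 13.6%. E2F7, a repressive E2F factor, led at 1.98 (SE 0.28, edgeR adjusted p = 0.000176), and SKP2, of the ubiquitin ligase that degrades p27, was lowest at -0.52 (SE 0.10, edgeR adjusted p = 0.00149). In T53D4 against ARPE19, 2 were called, both higher, against 0.743% of all genes. Without the block 0 were called, against 0.0368% higher and 0.118% lower of all genes. MekDD against T53D4 had 0 called, against 5.49% higher and 6.2% lower of all genes. Against AKTmyr the calls were 26 higher and 2 lower for RasV12, against 26.3% and 26.4% of all genes. Without the block they were 16 and 1, against 19.6% and 20.7%. For MekDD the calls with the block were 22 higher and 1 lower, against 20.3% and 20%. Without it they were 11 and 0, against 12.7% and 13.5%. Of 10 genes of the RB family and CDK inhibitors, 3 were called higher and 0 lower in AKTmyr against T53D4, against 16.9% and 17.9% of all genes. The calls were 2 higher and 3 lower in RasV12 against T53D4 (16.6% and 19.2%) and 3 and 2 in MekDD against AKTmyr (20.3% and 20%). In T53D4 against ARPE19 they were 1 and 1 (0.743% and 0.963%). Among these genes, CDKN1A was higher in AKTmyr than in T53D4 by 2.37 (SE 0.24, edgeR adjusted p = 4.32e-05). Its log2 fold change was -1.36 (SE 0.24, edgeR adjusted p = 0.02) in T53D4 against ARPE19 and -2.59 in MekDD against AKTmyr. RasV12 also had more CDKN1A than T53D4, by 1.41 (SE 0.24, edgeR adjusted p = 0.000611), in the pair where the 44 genes had a median of -0.04.

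The genes were also divided by whether their promoter held an E2F-type word. In AKTmyr against T53D4 the 22 genes with one had a median of -0.61 with 11 called lower, and the 18 without had -0.49 with 3 called lower, where 17.9% of all genes were called lower. In RasV12 against T53D4 the medians were -0.13 and 0.03. RRM2, ORC6 and TK1, called in that pair, are among the genes without one, and E2F1 and E2F2 among those with one. RasV12 against AKTmyr had medians of 0.475 with a word and 0.467 without. Of the 22 and 18 genes, 9 and 8 were called higher there, against 26.3% of all genes. For MekDD against AKTmyr the medians were 0.56 (11 called higher) and 0.43 (5), against 20.3%. Relative to ARPE19, genes with a word had the higher median for T53D4 (0.69 against 0.64) and MekDD (0.73 against 0.65). They had the lower one for RasV12 (0.55 against 0.71) and AKTmyr (0.11 against 0.21). No test was made of these differences.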

How the data were processed

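The authors deposited a table of raw read counts per gene for the 15 libraries, with an annotation and rows for the construct sequences. The build was hg38, with HISAT2 2.1.0 and featureCounts 1.6.4 among the tools, besides DESeq2 1.28.1 and fastp 0.20.0, per the submitters' processing notes. Libraries were poly(A), directional and paired-end, per the labels.

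Construct rows were left out of the tests. Genes passed edgeR's filterByExpr at a minimum count of 10, and library sizes were scaled by TMM. One edgeR 4.0.16 quasi-likelihood fit (R 4.3.3) held all 15 libraries, with line and replicate number as terms, and p-values were adjusted by Benjamini-Hochberg over 13599 genes. SE is the size of the log2 fold change over the square root of F. Log2 levels per library used a prior count of 0.5. DESeq2 1.42.0 was an alternative. The steps were tested on simulated data in which each replicate effect was the same in every line. Such data cannot show how the calls behave where replicates shift differently by line.

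Whether replicate numbers pair the libraries was checked by correlating deviations from line means. Of 30 same-number correlations, 27 were over 0.1 (lowest -0.013, median 0.296, highest 0.689), and all 3 were in 7 of 10 comparisons. The exceptions were replicate 3 in RasV12 against AKTmyr (0.017), RasV12 against ARPE19 (-0.013) and MekDD against ARPE19 (0.079). Pairing was thus not borne out there. Those pairs had the most genes called with the block, at 20, 22 and 23, against 6, 9 and 6 without it (shares of all genes are given above). All 15 libraries correlated best with their own number. The labels do not say what a number marks.

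The 44 genes, the other lists and the tests were chosen with earlier results of these data known. Values in every library are given for CCNE1, CCNE2, E2F1, MCM2, MCM10, CDC6, CDT1, GINS2, PCNA, RRM2, TYMS, TK1 and UHRF1 and for members with the largest called changes of a comparison, up to 6 each way, and up to 4 each way of other lists are named. Replicates are vials of 1 line, so the p-values measure the spread between vials only.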

Additional observations from a re-analysis of the deposited data

How the results depend on the processing

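The count of the 44 genes called moved with the replicate block and with single libraries. Without the replicate block it was 0 for T53D4 against ARPE19, 1 for RasV12 against T53D4, 4 for AKTmyr against T53D4, 1 for RasV12 against MekDD, 6 for RasV12 against AKTmyr, 6 for MekDD against AKTmyr, 9 for RasV12 against ARPE19, 6 for MekDD against ARPE19, 1 for AKTmyr against ARPE19 and 11 over the 5 lines. DESeq2 with the block gave 17 for T53D4 against ARPE19 and stayed within 1.5 times elsewhere. Fitting the 2 lines alone with the block gave 6 for T53D4 against ARPE19, 3 for MekDD against T53D4, 9 for RasV12 against MekDD, 5 for RasV12 against AKTmyr, 8 for MekDD against AKTmyr, 4 for MekDD against ARPE19 and 12 for AKTmyr against ARPE19. Leaving out 1 library or 1 replicate number gave 0 to 7 for T53D4 against ARPE19, 0 to 7 for RasV12 against T53D4, 0 each time for MekDD against T53D4, 1 to 28 for AKTmyr against T53D4, 0 to 5 for RasV12 against MekDD, 1 to 34 for RasV12 against AKTmyr, 2 to 33 for MekDD against AKTmyr, 6 to 32 for RasV12 against ARPE19, 0 to 33 for MekDD against ARPE19, 0 to 3 for AKTmyr against ARPE19 and 2 to 39 over the 5 lines. The cause was not tested. Most of these counts have no share of all genes from the same fit beside them, so they show only how far the calls move. DESeq2's size factors in edgeR, no low-count filter and keeping the construct rows stayed within 1.5 times. Of 64 calls of single genes followed through 24 alternatives, 8 were kept in all, and 0 values reversed.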
